A study of Homo sapiens with 6 samples.

Results

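The regions described are 500 dense clusters of distal open chromatin in KMS-11, a human multiple myeloma line derived from a cancer of antibody-secreting plasma cells. They were chosen by values measured in the 3 control libraries. Peaks with a −log10 q of at least 10 were merged over the controls, and regions found in all 3 and more than 2 kb from both annotated ends of every protein-coding gene were kept. Regions with gaps of at most 12.5 kb were joined, and the 500 clusters with the most covered bases were taken. They are 500 of 29945 distal clusters (1.67%) and hold 2887 of 43228 distal regions and 7.76% of the covered bases. The data were 6 ATAC-seq peak lists, in which the Tn5 transposase marks accessible DNA. In 3 ATF4 knockdown libraries the cells bore the lentiviral treatment labelled LentiV2_ATF4g3. In 3 control libraries they bore the treatment labelled LentiV2. All 6 libraries carry the genotype label WT, so every group is a treated form of a single line. A single guide label was used, the labels do not state how it acts, and no ATF4 level is measured by these lists. The labels number the libraries as biological replicates and do not say how the cultures were separated.

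Super-enhancers are groups of closely spaced enhancers that carry unusually high loads of Mediator and acetylated histone H3, and they lie near genes that set a cell's identity. In plasma cells such domains are known at the immunoglobulin loci and near PRDM1 and XBP1, and in myeloma rearranged immunoglobulin enhancers can drive oncogenes such as MYC. ATF4 switches on amino acid synthesis, transport and stress genes when translation is restrained, and the title of the study names enhancers that it binds with p52, a product of the NF-kB gene NFKB2. ATAC-seq measures accessibility and no histone mark, so the clusters are called dense distal clusters here.

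The background pileup, the library-wide rate of overlapping tags at the listed summits, was 2.51, 2.15 and 2.51 in knockdown libraries 1 to 3, against 3.19, 2.79 and 3.52 in control libraries 1 to 3. Every knockdown library was below every control, so depth and group cannot be told apart in values that depend on depth. A gene is said to have a cluster as its nearest gene, as its host or with an end in its span, and 504 of 19122 protein-coding genes (2.64%) did. Of 10 plasma cell transcription factors 3 (PRDM1, XBP1 and ELL2) had a cluster, and of 21 plasma cell surface and secretory genes 3 did. So did 2 of 13 epithelial and stromal markers (15.4%) and 1 of 16 T and NK cell markers (6.25%), and none of 12 B cell, 13 myeloid or 7 erythroid markers on chromosomes 1 to 22. With so few genes in each list, no cell type is read from these counts.

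Sequences of loci on which the results turn are given here, from RefSeq on GRCh38.p14. The clusters themselves are longer than a printable stretch, so the sequences are of microRNAs encoded inside 5 of them and of promoters that belong to 3. The spans held 22 microRNA hairpins in 20 clusters. The microRNAs below were picked, after their values were seen, because they are well known. Capitals mark the seed, bases 2 to 8 from the 5′ end, which pairs with target RNAs. None of the 5 seeds is shared.
hsa-miR-9-5p: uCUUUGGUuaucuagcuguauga
hsa-miR-21-5p: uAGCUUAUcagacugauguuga
hsa-miR-193b-3p: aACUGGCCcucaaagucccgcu
hsa-miR-365a-3p: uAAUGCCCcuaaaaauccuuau
hsa-miR-200b-3p: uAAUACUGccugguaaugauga
The same mature miR-9-5p comes from MIR9-2 (chr5:88666902-88666924, minus strand), in the cluster nearest to MEF2C, and from MIR9-1 (chr1:156420392-156420414, minus strand), in a cluster nearest to MEF2D. MiR-21 lies at chr17:59841273-59841294 (plus strand) in a cluster inside VMP1. MiR-193b and miR-365a lie at chr16:14304017-14304038 and chr16:14309340-14309361 (plus strand), in one cluster nearest to MRTFB. MiR-200b, an epithelial microRNA in textbook accounts, lies at chr1:1167160-1167181 (plus strand).

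The promoter windows run from 250 bases before to 50 bases after an annotated transcription start. They are shown for TENT5C, whose downstream cluster had the lowest fold difference of all 500, for an internal promoter of PRDM1 that lies inside its cluster, and for TNFAIP3, the NF-kB gene with a cluster. Capitals mark an AP-1 site (TGACTCA or its complement TGAGTCA) in PRDM1 and 2 matches to the NF-kB consensus in TNFAIP3. Of the motifs searched, none was found in the TENT5C window, which has no capitals.
TENT5C, chr1:117605798-117606097, plus strand: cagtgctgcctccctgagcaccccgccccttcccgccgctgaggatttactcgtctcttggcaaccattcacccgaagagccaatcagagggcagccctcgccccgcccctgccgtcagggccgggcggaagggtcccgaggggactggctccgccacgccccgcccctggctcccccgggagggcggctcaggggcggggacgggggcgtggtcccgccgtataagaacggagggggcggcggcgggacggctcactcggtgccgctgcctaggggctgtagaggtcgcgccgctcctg
PRDM1, chr6:106098691-106098990, plus strand: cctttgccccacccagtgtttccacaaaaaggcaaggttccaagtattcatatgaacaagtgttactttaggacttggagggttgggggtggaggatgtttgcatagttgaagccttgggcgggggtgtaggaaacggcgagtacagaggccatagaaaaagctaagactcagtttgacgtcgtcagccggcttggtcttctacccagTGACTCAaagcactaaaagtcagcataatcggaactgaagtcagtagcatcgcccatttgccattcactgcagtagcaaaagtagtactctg
TNFAIP3, chr6:137867009-137867308, plus strand: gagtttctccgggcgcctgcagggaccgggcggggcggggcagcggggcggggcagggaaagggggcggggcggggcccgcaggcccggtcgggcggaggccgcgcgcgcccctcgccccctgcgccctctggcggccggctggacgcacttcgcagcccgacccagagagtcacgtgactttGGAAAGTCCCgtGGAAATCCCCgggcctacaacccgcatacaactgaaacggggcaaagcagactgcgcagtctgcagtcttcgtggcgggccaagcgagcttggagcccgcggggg
Both strands of 21155 promoter windows of protein-coding genes were searched, and 690 of them belonged to the nearest genes of the clusters. The ATF4 site core (TGATGCAA or TTGCATCA) was in 0.58% of the nearest-gene windows and 0.676% of all windows. The cyclic AMP response element TGACGTCA was in 1.45% and 2.31%, the NF-kB consensus in 13.9% and 12.7%, and the AP-1 site in 4.49% and 3.98%. These shares describe letters in the windows and nothing about binding, and none of them was tested.

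Each cluster held 3 to 17 regions (median 5) with 3826 to 13707 covered bases (median 4685), over a span of 7957 to 94460 bp (median 28074.5). Regions filled 8.52% to 55.8% of the span (median 17.99%). The other 29445 clusters had a median of 862 covered bases, and 74.1% of them were a single region. The limit of 500 cut a smooth curve: ranks 496 to 500 had 3841, 3837, 3834, 3831 and 3826 covered bases, and ranks 501 to 505 had 3825, 3820, 3814, 3814 and 3809. No step separated the kept clusters from the rest.

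**Figure D1:**
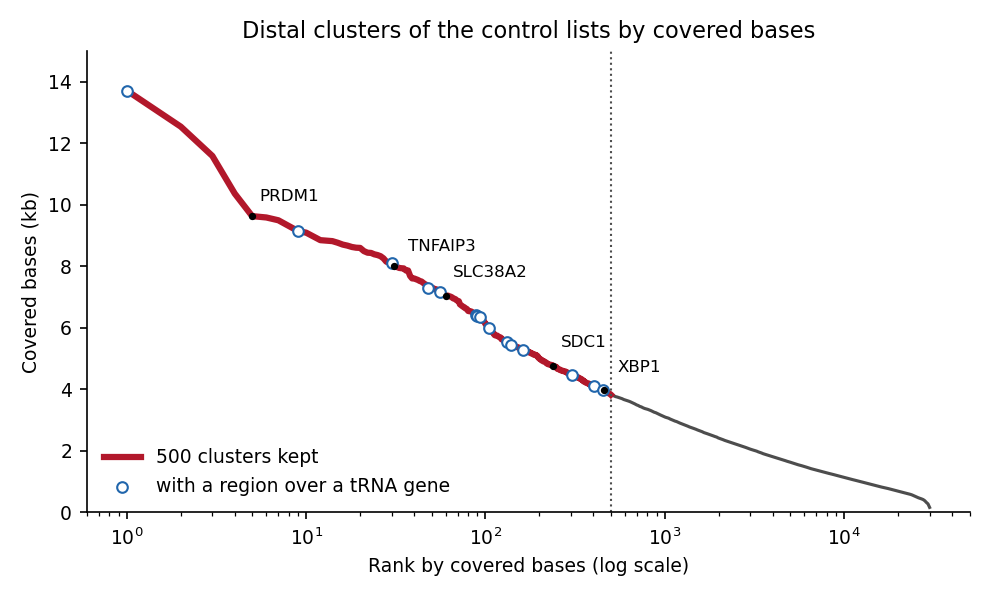
Covered bases in the control regions (kb, vertical axis) against rank on a log scale (horizontal axis) for the distal clusters. The red part is the 500 kept, open circles are the 15 with a region over a tRNA gene, and black dots are named examples. The curve is smooth at rank 500, and the first-ranked cluster, with 13707 covered bases, is one of the circled.

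The cluster with the most covered bases was an array of tRNA genes, the templates of the adaptor RNAs of translation, which RNA polymerase III transcribes. It spans chr1:161382014-161470449, is nearest to the cilium gene CFAP126 at 14.1 kb, and holds 24 annotated tRNA genes, and 8 of its 11 regions overlap one. The last 5 regions stood 7.25, 7.36, 7.44 and 7.36 kb apart, centre to centre. In all, 15 of the 500 clusters had a region over a tRNA gene, and 13 had at least 2 such regions. These 15 held 64 of the 160 distal regions over tRNA genes, which is 2.22% of the regions in the clusters, against 0.238% of the other distal regions. They included clusters nearest to OR1F1 (rank 30, 14 tRNA genes), H4C8 in a histone gene region of chromosome 6 (rank 48, 11 tRNA genes), HMGN4 (rank 56, 10 tRNA genes), OSBP (rank 93, 8 tRNA genes) and SCAND3 (rank 105, 8 tRNA genes). A name taken from enhancers goes against the annotation of these loci. Copies of a tRNA gene are nearly identical, and how shared reads were placed is not given in the sources used here.

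In the CFAP126 array, covered length was 12019, 11963 and 12323 bp in the knockdown libraries, against 13265, 12667 and 13038 bp in the controls. The knockdown libraries were all below the controls before scaling, as in 43.1% of all 29945 distal clusters, while all 3 were above the controls in 0.104%. After each library was scaled to the same total covered length, the difference was 0.02 (log2, SE 0.04). In a bulk library, fewer cells with an open site and less opening per cell cannot be told apart. Its strongest summit stood 14.7-, 15.7- and 14.1-fold over the local background in knockdown libraries, against 15.7-, 17.1- and 13.5-fold in controls, and the groups overlapped. Of its 11 regions 10 were found at a −log10 q of at least 10 in every knockdown library. Over the 15 tRNA clusters the scaled covered length differed by −0.17 to 0.06 (log2, median −0.02), beside a median of −0.12 over the other 485 clusters. This contrast between the 15 and the others was not tested.

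Antigen receptor loci, which developing lymphocytes rearrange and whose immunoglobulins plasma cells secrete as antibodies, held another group of clusters. The nearest protein-coding gene by the rule is a poor name for them, since antibody segments are annotated in classes of their own. The cluster ranked 65 (chr14:105557197-105586431) ends 0.505 kb from IGHA2, and that ranked 76 (chr14:105677611-105706878) ends 0.289 kb from IGHA1. Both adjoin a constant gene of the immunoglobulin heavy chain on the side where the 3′ regulatory regions of that locus are known to lie. A cluster ranked 84 (chr2:88831734-88858501) overlaps IGKC, the kappa light chain constant gene. Those ranked 170 and 276 lie 9.80 kb from IGLC1 and 5.53 kb from IGLC7, constant genes of the lambda chain. These clusters were picked out after their values were seen.

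The IGHA2 cluster covered 6481, 6588 and 6429 bp in knockdown libraries, against 6798, 6486 and 7130 bp in controls, and the groups overlapped. The scaled difference was 0.06 (log2, SE 0.06), and all 6 regions were found in every knockdown library. Local background there was 8.66, 9.16 and 10.5 times the library-wide rate in knockdown libraries, against 15.5, 16.96 and 15.3 times in controls. The IGHA1 cluster covered 6957, 6491 and 5551 bp in knockdown libraries, against 6566, 6698 and 7423 bp in controls. Its scaled difference was 0.00 (log2, SE 0.10), and the groups overlapped. The IGKC cluster covered 5324, 5955 and 5422 bp in knockdown libraries, against 6093, 6303 and 6368 bp in controls, with a scaled difference of −0.04 (log2, SE 0.07). The tenth-ranked cluster, nearest to the synaptic gene AMPH, spans 11 segments of the T cell receptor gamma locus from TRGV9 to TRGV1 and had 16 regions. It covered 7653, 7163 and 7231 bp in knockdown libraries, against 8416, 8217 and 8811 bp in controls.

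The other leading clusters are given by their nearest or host genes. Rank 2 was inside and beside ANKRD55 (chr5:56011757-56106216, 12534 covered bases) and had the widest span. Rank 3 was at ETV3, a repressor of the ETS family (chr1:157106209-157197261, 11582 covered bases), and its 17 regions were the most in any cluster. Ranks 4 and 6 were at FAM167A and in CCDC88C, a regulator of Wnt signalling. Rank 7 ran from ZNF710 into IDH2, the mitochondrial isocitrate dehydrogenase, and rank 8 was in SPTBN1, a spectrin of the membrane skeleton. Rank 9 lay beside the predicted gene LOC124903857, and ranks 11 and 12 lay upstream of EML4, a microtubule protein, and at QPCT, a glutaminyl cyclase. Differences in scaled covered length over the first 12 ranged from −0.23 at IDH2 to 0.02 at CFAP126 (log2). Of these 12 clusters 10 overlapped one of the 500 chosen in the same way on the knockdown lists, and those at ETV3 and CCDC88C did not.

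PRDM1, the repressor that drives plasma cell differentiation, had the fifth cluster (chr6:106084272-106146344, 14 regions, 9627 covered bases). Covered length was 8195, 8596 and 8046 bp in knockdown libraries, against 9806, 9438 and 10451 bp in controls. Before scaling every knockdown library was below every control, as in 43.1% of all distal clusters, and the scaled difference was −0.13 (log2, SE 0.07). Its strongest summit stood 10.8-, 12.7- and 14.9-fold over local background in knockdown libraries, against 13.8-, 14.9- and 14.0-fold in controls. In knockdown libraries 12 of the 14 regions were found in all 3, beside 66.3% of the regions of all 500 clusters. The region centred 45.2 kb into the cluster had folds of 7.79, 10.7 and 6.89 in knockdown libraries, against 13.8, 14.9 and 14.0 in controls. The region centred 33.4 kb in had 10.2, 12.7 and 14.9 in knockdown libraries, against 11.6, 11.7 and 9.88 in controls, and there the groups overlapped. On the knockdown lists the same locus ranked 3, with 7372 covered bases. Of its regions 2 overlapped promoter windows of PRDM1, since the rule left out the outermost gene ends and not internal starts. Over all 500 clusters 93 of 2887 regions (3.22%) overlapped a promoter window of a protein-coding gene, and 2.58% of the other distal regions did.

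XBP1, the transcription factor that expands the secretory apparatus, had a cluster 11.1 kb upstream (rank 455). It covered 3421, 3053 and 3340 bp in knockdown libraries, against 4078, 3744 and 4010 bp in controls, with a scaled difference of −0.14 (log2, SE 0.07). Its fold was 11.0, 11.4 and 8.89 in knockdown libraries, against 14.3, 16.6 and 14.1 in controls. The fold differed by −0.48 (log2, SE 0.14), with every knockdown library below every control, as in 66% of all clusters. The cluster inside ELL2, an elongation factor of antibody mRNA processing, ranked 444 and covered 3421, 3055 and 3616 bp in knockdown libraries, against 4369, 4089 and 4293 bp in controls.

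Among 19 myeloma oncogenes and survival genes on the chromosomes used, 4 had a cluster (21.05%, beside 2.64% of all protein-coding genes). MYC, the growth-driving transcription factor, had 2 (ranks 233 and 428), 45.3 and 232.5 kb away along the PVT1 transcript. The nearer covered 3424, 3443 and 3394 bp in knockdown libraries, against 4241, 3914 and 4373 bp in controls, and the farther 3163, 3140 and 3619 bp in knockdown libraries, against 4122, 3464 and 3530 bp in controls. BCL2L1, which encodes the survival protein BCL-XL, had an intragenic cluster (rank 216) with all 4 regions found in every knockdown library. Its fold of 7.94, 9.17 and 9.26 in knockdown libraries, against 13.3, 15.3 and 10.7 in controls, differed by −0.52 (log2, SE 0.16). DEPTOR, an inhibitor of mTOR that many myelomas overproduce, had one (rank 69) with a scaled covered difference of −0.16 (log2, SE 0.07).

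TENT5C, a poly(A) polymerase that stabilises antibody mRNAs and acts as a tumour suppressor in myeloma, had the cluster that differed most in fold. Its 12 regions begin 3.01 kb downstream of the gene (rank 34, chr1:117631397-117686944). Covered length was 4633, 5877 and 5265 bp in knockdown libraries, against 8577, 8521 and 8773 bp in controls. The fold of the strongest summit was 5.42, 6.66 and 8.55 in knockdown libraries, against 18.4, 18.5 and 14.1 in controls. All knockdown values were below all control values for both measures. The same held in 43.1% of all distal clusters for covered length before scaling and in 66% for the fold. The scaled covered length differed by −0.58 (log2, SE 0.09) and the fold by −1.20 (log2, SE 0.18). The cluster was chosen on the controls, which favours lower knockdown values, so these differences are a description. Of its 12 regions 2 were found at a −log10 q of at least 10 in all 3 knockdown libraries, and 6 were found in none. Over all regions of the kept clusters the shares were 66.3% and 13.0%. The last region, 55.1 kb into the cluster, had folds of 4.28, 5.07 and 5.99 in knockdown libraries, against 18.4, 18.5 and 14.1 in controls. The region 34.5 kb in was not listed in any knockdown library and had folds of 6.93, 5.95 and 5.10 in controls. The promoter of TENT5C printed above, which the rule did not use, had folds of 8.51, 7.78 and 9.85 in knockdown libraries, against 9.73, 9.43 and 8.83 in controls, and there the groups overlapped.

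**Figure D2:**
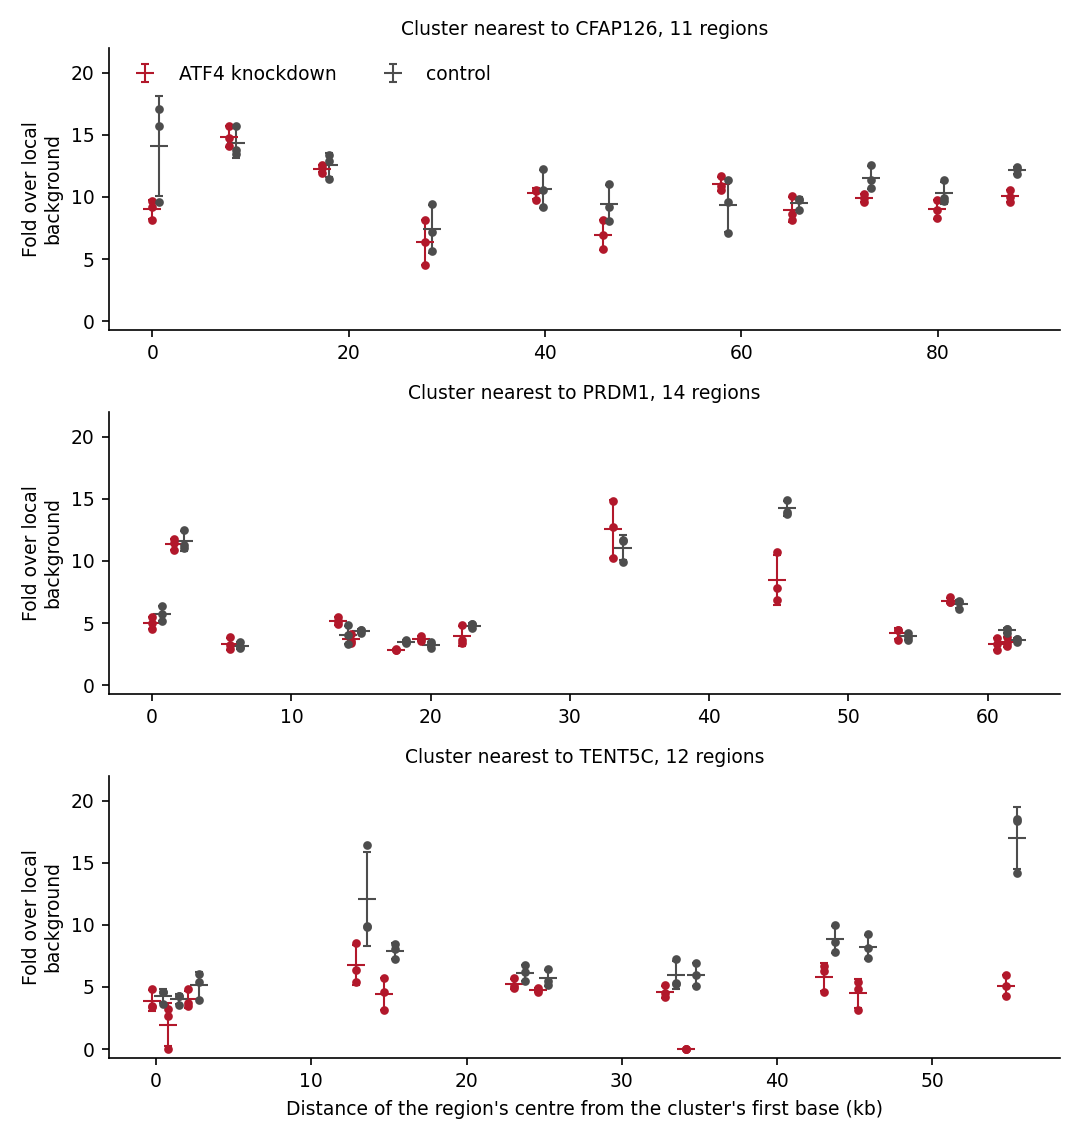
Fold over local background of each region's strongest summit (vertical axis) against the distance of the region's centre from the cluster's first base in kb (horizontal axis), for the clusters nearest to CFAP126, PRDM1 and TENT5C. Points are libraries and bars are the mean ± SD (n = 3 each), with 0 where no peak was listed, knockdown in red and control in grey, set slightly apart. The last TENT5C region lies between 4.28 and 5.99 in knockdown libraries and between 14.1 and 18.5 in controls, and in the first region of the CFAP126 array the groups overlap, at 8.14 to 9.64 in knockdown libraries and 9.56 to 17.1 in controls.

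Plasma cell surface and secretory genes had clusters at 3 of 21 loci (14.3%, beside 2.64% of all protein-coding genes). SDC1, the syndecan CD138 that marks plasma cells, had an intragenic cluster (rank 238) with 3 regions on a span of 8550 bp. It covered 3519, 3898 and 3537 bp in knockdown libraries, against 3975, 4194 and 4643 bp in controls, with a scaled difference of −0.10 (log2, SE 0.09). FCRL5, an Fc receptor-like surface protein, had one (rank 148) that covered 3953, 4113 and 4144 bp in knockdown libraries, against 5841, 5034 and 5485 bp in controls, with a difference of −0.28 (log2, SE 0.07). TXNDC5, a disulfide isomerase of the endoplasmic reticulum, had one (rank 287) with 2684, 3103 and 2953 bp in knockdown libraries, against 4021, 3987 and 3981 bp in controls, and a difference of −0.32 (log2, SE 0.07). In all 3 clusters every knockdown library was below every control before scaling, as in 43.1% of all distal clusters. Of the kept clusters 361 were below in this way and 139 overlapped.

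Of 34 ATF4 targets, 3 had a cluster (8.82%, beside 2.64% of all protein-coding genes). SLC38A2, a glutamine and neutral amino acid transporter, had one 143.8 kb upstream (rank 60). It covered 4879, 4572 and 4995 bp in knockdown libraries, against 7234, 6290 and 6835 bp in controls. Of its 8 regions 3 were found at a −log10 q of at least 10 in no knockdown library. Over all regions of the kept clusters 13.0% were in none, and 253 kept clusters had at least 1 such region. Its scaled difference was −0.36 (log2, SE 0.07), and this cluster did not pass an adjusted p of 0.05 in limma. ATF3, a stress-induced factor of the same family, had a cluster in its body (rank 253) with 3233, 3192 and 3779 bp in knockdown libraries, against 4666, 4529 and 4457 bp in controls. Its fold of 17.5, 17.3 and 17.1 in knockdown libraries, against 21.5, 25.9 and 19.7 in controls, differed by −0.35 (log2, SE 0.11). DDIT4, an inhibitor of mTOR complex signalling, had one 9.92 kb upstream (rank 343) with 3486, 3265 and 3751 bp in knockdown libraries, against 4206, 3745 and 4073 bp in controls, where the groups overlapped.

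Of 28 NF-kB genes 1 had a cluster (3.57%, beside 2.64% of all protein-coding genes). It was TNFAIP3, the deubiquitinase A20 that restrains NF-kB (rank 31, 44.1 kb downstream, 9 regions). It covered 6664, 6691 and 8007 bp in knockdown libraries, against 8787, 7838 and 8180 bp in controls, and its fold was 13.8, 15.5 and 14.1 in knockdown libraries, against 13.4, 16.2 and 14.8 in controls. The groups overlapped for both measures. The TNFAIP3 promoter with the 2 NF-kB matches had folds of 10.4, 9.42 and 9.69 in knockdown libraries, against 9.89, 10.5 and 9.65 in controls, and the groups overlapped there too. BACH1, named in the title of the study, had no cluster. Of 17 genes of the BACH1 and NRF2 axis, NFE2L2, which encodes the antioxidant regulator NRF2, had one 7.40 kb upstream (rank 380). Its fold was 7.08, 9.13 and 9.34 in knockdown libraries, against 15.9, 20.3 and 13.4 in controls, a difference of −0.87 (log2, SE 0.17). Its scaled covered length differed by −0.19 (log2, SE 0.07).

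The T and NK cell marker with a cluster was LEF1 (rank 141), and the epithelial and stromal markers were EPCAM and CDH1 (ranks 53 and 110). EPCAM encodes an epithelial adhesion protein and CDH1 the adhesion protein E-cadherin. The EPCAM cluster covered 5947, 5671 and 5886 bp in knockdown libraries, against 7495, 5915 and 6794 bp in controls.

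For the microRNA clusters, the regions found at a −log10 q of at least 10 in every knockdown library were counted. Over all regions of the kept clusters 66.3% were so found, beside 57.4% of the other distal regions. Each microRNA cluster held only 4 to 7 regions, so no difference between these clusters is read from the counts. The MIR9-2 cluster nearest to MEF2C (rank 39) had all 6 and covered 6746, 6784 and 6162 bp in knockdown libraries, against 7155, 6598 and 7270 bp in controls. The MIR9-1 cluster (rank 207) covered 4051, 4569 and 4128 bp in knockdown libraries, against 5283, 5110 and 5837 bp in controls, with 5 of 6 such regions. The MIR21 cluster (rank 370) covered 2910, 3216 and 3387 bp in knockdown libraries, against 3940, 3621 and 3679 bp in controls, with 5 of 7. The MIR193B and MIR365A cluster (rank 89) covered 5552, 5481 and 5407 bp in knockdown libraries, against 5980, 5801 and 6291 bp in controls, with 3 of 6 and a scaled difference of −0.01 (log2, SE 0.06). The MIR200B cluster (rank 264) covered 3703, 3866 and 4441 bp in knockdown libraries, against 4722, 4264 and 5123 bp in controls, with 2 of 4.

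Of the regions in the clusters 50.7% lay in a gene body, beside 49.1% of the other distal regions. In 219 clusters every region was in a gene body, in 199 none was, and 82 were mixed. The nearest gene end was 2.00 to 1994 kb away (median 14.6 kb), and 59 clusters were more than 100 kb from a gene. The 500 clusters had 458 different nearest genes. Of their regions 13.5% lay within 2 kb of an end of a long non-coding RNA gene, beside 8.69% of the other distal regions. Chromosome 1 held 61 clusters (12.2%) with 9.86% of the distal regions. Of these clusters 41 lay beyond 120 Mb, but the share of distal regions lying there was not computed, so nothing is read from this count. The share of a chromosome's distal regions that fell in clusters was highest on chromosome 16 (11.5%) and lowest on chromosome 13 (2.14%).

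Accessible ends of the nearest genes, which the rule left out, were more frequent than at genes in general. A peak at a −log10 q of at least 10 within 2 kb of an end was found for 78.2%, 78.4% and 78.8% of the 458 nearest genes in knockdown libraries, against 80.8%, 81.7% and 80.6% in controls. Over all 19122 genes the shares were 67.2%, 67.8% and 68.5% in knockdown libraries, against 71.5%, 72.2% and 71.5% in controls. In all 6 libraries 351 nearest genes (76.6%) and 65.7% of all genes had such a peak. This gap between nearest and all genes was not tested.

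Before scaling, the knockdown libraries had less covered DNA in the clusters. The median cluster was covered over 3877 ± 82 bp in knockdown libraries and over 4523 ± 181 bp in controls (SD, n = 3 each), a ratio of 0.857. The other distal clusters had a ratio of 0.774, and the total listed covered length had a ratio of 0.917. The median of the strongest fold was 11.6 ± 0.57 in knockdown libraries and 14.8 ± 1.32 in controls (SD, n = 3 each), a ratio of 0.786 beside 0.683 for the other clusters. Of the 2887 regions, 72.4%, 76.1% and 82.0% were found at a −log10 q of at least 10 in knockdown libraries 1 to 3, beside 67.0%, 69.1% and 76.2% of the other distal regions. All 3 knockdown libraries held 66.3% of the regions in clusters and 57.4% of the others, and 13.0% and 16.3% were in none. In 66 clusters every region was found in all 3 knockdown libraries, and in 253 at least 1 region was found in none. All regions were found in the controls by the rule, so these ratios describe the knockdown lists beside a choice made on the controls.

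Fold in the deposited lists is taken over a local background, which was higher in the kept clusters than in the others. Its median over the clusters was 3.18 ± 0.16 times the library-wide rate in knockdown libraries and 4.32 ± 0.26 times in controls (SD, n = 3 each). In the other clusters it was 1.29 ± 0.01 and 1.42 ± 0.05 times. The pileup of the strongest summit over the library-wide rate, which does not use the local background, had a median of 51.5 ± 5.23 in knockdown libraries and 84.5 ± 12.03 in controls, a ratio of 0.610 beside 0.637 for the other clusters. Neither the source of the higher local background nor its part in the fold differences was tested.

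In limma, with a threshold of an adjusted p of 0.05, 10 of the 500 clusters (2.0%) passed with a lower scaled covered length in knockdown and 0 with a higher one. The shares over all clusters were 1.56% and 0%. Without adjustment, 142 of the 500 were lower and 1 higher at a p under 0.05, beside 19.4% and 0.19% of all clusters. The median difference was −0.11 (log2) over the 500, beside −0.15 over all clusters. For the fold, 198 of the 500 were lower and 0 higher, beside 50.6% and 0.0401% of all clusters. Its median was −0.29 (log2), beside −0.49 over all clusters. Every distal cluster was chosen by a high −log10 q in the controls, and the knockdown lists had no part in that choice. Lower values in knockdown are favoured by it, so nothing is read from these counts. When any single control library was left out, 0 of the 500 and 0 of all clusters passed for covered length. Leaving out knockdown library 1, 2 or 3 let 2, 4 or 8 of the 500 pass (0.4%, 0.8% or 1.6%). Over all clusters 1.77%, 1.79% or 2.72% then passed.

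The 10 clusters that passed were nearest to TENT5C, TNFAIP8, TARBP1, IRF1, MDM1, PLEKHA7, TMEM250, COL15A1, PWWP2B and TENM2. They held 67 regions, of which 30 were found in all 3 knockdown libraries and 22 in none. Over all regions of the kept clusters, 66.3% were found in all 3 and 13.0% in none. The 10 were picked for lower covered length in knockdown, which favours fewer regions found there, so nothing is read from these counts. For the fold, 4 of the 10 (TENT5C, TNFAIP8, IRF1 and COL15A1) also passed as lower, beside 39.6% of the kept clusters and 50.6% of all clusters. IRF1 encodes a transcription factor of the interferon response, and its cluster lay 2.96 kb downstream (rank 124, chr5:132456546-132478652). It covered 3517, 3589 and 3683 bp in knockdown libraries, against 5502, 5113 and 5328 bp in controls, a scaled difference of −0.42 (log2, SE 0.05). The cluster inside TNFAIP8, an apoptosis regulator, covered 6185, 6699 and 7002 bp in knockdown libraries, against 9345, 9180 and 9451 bp in controls, a difference of −0.36 (log2, SE 0.06). That near TARBP1, an RNA methyltransferase, covered 4348, 4318 and 4493 bp in knockdown libraries, against 6096, 6216 and 5892 bp in controls, while its fold of 14.4, 13.2 and 15.5 in knockdown libraries, against 14.0, 14.9 and 13.6 in controls, overlapped. In these 3 clusters no knockdown value of covered length before scaling reached a control value, as in 43.1% of all distal clusters.

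The lowest covered differences of all 500 were at NTMT1 (−0.61), TBC1D22B (−0.60), TLR4 (−0.58), TENT5C (−0.58) and RHOD (−0.50, all log2), and of these only TENT5C passed. The NTMT1 cluster, near an N-terminal methyltransferase gene, covered 2295, 1622 and 3208 bp in knockdown libraries, against 3751, 3715 and 4315 bp in controls. Its knockdown libraries spread widely, and its fold difference was 0.06 (log2, SE 0.19). The highest differences were at PGLYRP4 (0.22), NOL4L, RGL1 and BICRAL (0.12 each) and GINS2 (0.11, all log2), and none passed. The PGLYRP4 cluster, at a peptidoglycan recognition gene, covered 3973, 3661 and 3671 bp in knockdown libraries, against 3394, 3313 and 3815 bp in controls, and the groups overlapped. Before scaling, covered length in knockdown was below every control in 361 clusters, above every control in 0 and overlapping in 139, while over all clusters it was below in 43.1% and above in 0.104%. The fold was below in 325, above in 2 and overlapping in 173, while over all clusters it was below in 66% and above in 0.25%. The same choice on controls enters these counts.

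**Figure D3:**
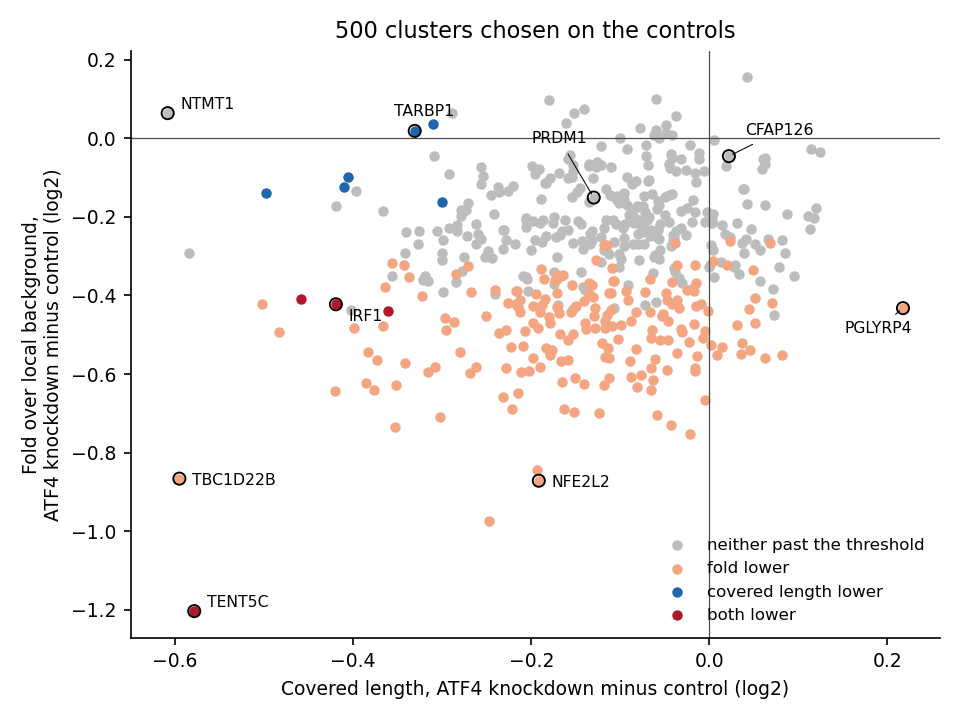
Difference of each cluster in scaled covered length (horizontal axis, log2) and in the fold of the strongest summit (vertical axis, log2), ATF4 knockdown minus control, for the 500 clusters. Colours give which measure passed an adjusted p of 0.05 in limma over all 29945 clusters, and ringed points are named. TENT5C, at −0.58 and −1.20, has the lowest fold difference of all, and most points lie below 0 on both axes, a direction that the choice on controls favours.

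Clusters chosen in the same way on the 3 knockdown lists gave the reverse view. These lists gave 25565 distal regions and 19961 clusters, and the 500 kept had 2724 to 9470 covered bases. Of the control-chosen clusters 279 (55.8%) overlapped 283 of the knockdown-chosen ones (56.6%). Of the 100 highest-ranked control-chosen clusters 74 were among the overlapping, and of the last 100, 44 were. The first 4 on the knockdown lists were the tRNA array near CFAP126, LMNA, PRDM1 and MEF2C, which ranked 1, 33, 5 and 39 on the controls. LMNA encodes the nuclear lamins A and C, and MEF2C a transcription factor of lymphoid and muscle cells. Over the knockdown-chosen clusters the median of the strongest fold was 10.96, 11.5 and 12.2 in knockdown libraries, against 13.98, 15.4 and 13.5 in controls. Their median covered length before scaling was 3157.5, 3125.5 and 3192.5 bp in knockdown libraries, against 3507, 3366.5 and 3572.5 bp in controls. Under this choice both measures were lower in every knockdown library than in every control. The total listed covered length was itself 0.917 times as long in knockdown libraries as in controls. Both measures move with depth, which cannot be told apart from group, and the cause was not tested. On the knockdown lists 169 control-chosen clusters were split into 2 or more.

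The control-chosen clusters held 4.41%, 4.50% and 4.64% of the distal covered length in knockdown libraries, against 4.88%, 4.64% and 5.36% in controls. Lists cut at a −log10 q of at least 10 gave the opposite order, 8.38%, 8.46% and 8.18% in knockdown libraries, against 7.24%, 6.87% and 7.47% in controls. The total distal covered length at that cut was 0.612 times as long in knockdown libraries as in controls, beside 0.920 times for all listed peaks. For knockdown-chosen clusters the means were 3.71 ± 0.05% in knockdown libraries and 3.79 ± 0.27% in controls (SD, n = 3 each). A choice on all 6 lists left 25019 distal regions, near the 25565 of the knockdown lists alone. Its clusters held 3.72 ± 0.06% in knockdown libraries and 3.90 ± 0.29% in controls (SD, n = 3 each; exact permutation test, two-sided, p = 0.5). At the stricter cut they held 7.85 ± 0.38% in knockdown libraries and 5.76 ± 0.26% in controls (SD, n = 3 each), a description, since the same cut chose them. When control library 1, 2 or 3 was left out of the choice, the clusters held a mean of 4.57%, 4.57% or 4.60% in knockdown libraries, against 4.90%, 4.69% or 5.40% in the control left out.

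**Figure D4:**
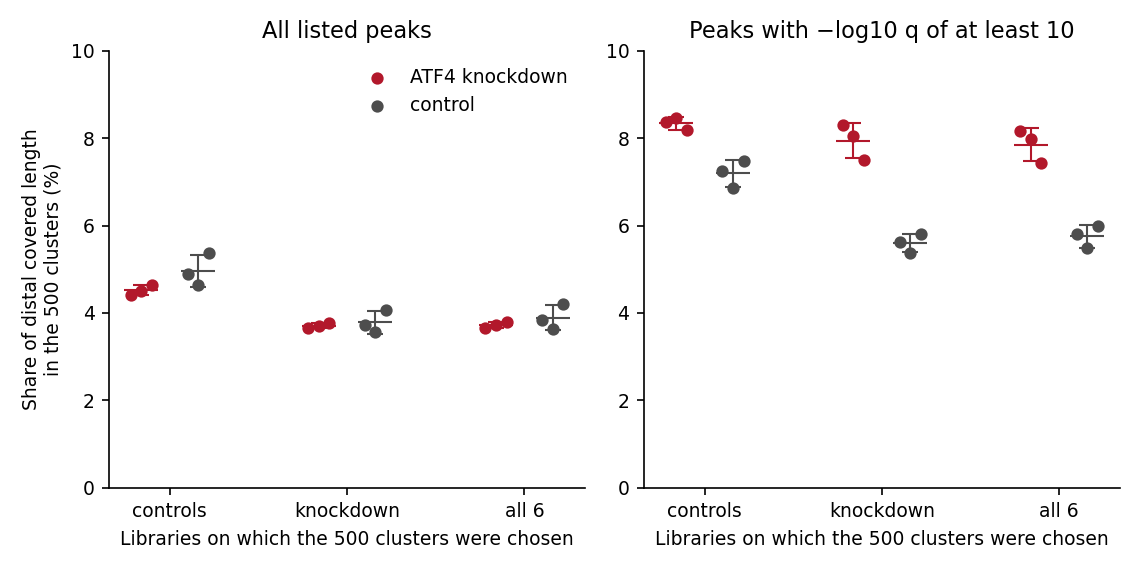
Share of each library's distal covered length that lay in 500 clusters (vertical axis, %), for clusters chosen on the controls, on the knockdown libraries and on all 6 (horizontal axis), knockdown in red and control in grey. Points are libraries and bars the mean ± SD (n = 3 each). With all listed peaks (left) the groups lie close, at means of 3.72% in knockdown and 3.90% in control for the choice on all 6. With peaks at a −log10 q of at least 10 (right) the knockdown share is higher for every choice, each made at that same cut, at means of 7.85% in knockdown and 5.76% in control for that on all 6.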

How the data were processed

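ATAC-seq peak lists of 6 libraries were used. Per the submitters' processing notes, MACS2 and hg38 were used, with a list for each library. For the aligner, the caller's version and its settings, the sources used here give nothing. The deposited lists give each summit's fold, a ratio of pileup to local background, and its −log10 p and −log10 q, and the deposited score is that −log10 p multiplied by 10 and capped at 1000. The lowest listed −log10 p is 2. Such values move with depth. Pileups were recovered from fold and −log10 p within 0.01 for 100% of summits. Gene positions came from RefSeq GRCh38.p14, with no genome sequence, and named genes follow ranks, lists and extreme differences.

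Covered length is the bases of listed peaks in a cluster's span more than 2 kb from gene ends, scaled to equal library totals. It was compared as log2(value + 200 bp), and fold as log2(value + 1), with limma 3.58.1 in R 4.3.3 (trend, robust, Benjamini-Hochberg over 29945 clusters, threshold 0.05), and both understate changes of low values. The code was tested on simulated data. Members and lists were chosen with earlier results of these data known. Chromosomes X and Y were left out. Replicate numbers did not pair the libraries. Alternatives covered scaling, cuts, pseudocounts, joining gaps, the choice of libraries, left-out libraries and a replicate block.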

Additional observations from a re-analysis of the deposited data

How the results depend on the processing

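Covered length depended on the setting. With a replicate block, 0 of the 500 clusters were lower, beside 0 of all clusters. Leaving out a library gave 0 to 8 (0% to 1.6%, beside 0% to 2.72% of all clusters). The count lower was 156 without scaling (31.2%, beside 9.22% of all clusters), 3 with a pseudocount of 50 bp (0.6%, beside 0.518%) and 31 when only clusters of at least 2 regions were tested (6.2%, beside 5.05%). Peaks cut at a −log10 q of 5 gave 4 lower and 57 higher, with a reversed median of 0.12 (log2), beside 4.88% lower, 4.21% higher and a median of 0.04 over all clusters. At 10 or more they gave 44 lower and 85 higher, with a reversed median of 0.065, beside 15.6% lower, 9.95% higher and a median of −0.07 over all clusters. The median was −0.23 without scaling. Kept regions alone gave 15 lower (3.0%, beside 1.92%).

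For the fold, the replicate block gave 145 lower (29.0%, beside 44.9% of all clusters). Leaving out a library gave 60 to 183 (12% to 36.6%, beside 20.3% to 48% of all clusters). The pileup over the library-wide background gave 407 lower and 1 higher with a median of −0.65 (log2), beside 56.4%, 0.154% and a median of −0.62 over all clusters. The mean over listed summits gave 0 lower with a median of −0.13, beside 3.01% and −0.32 over all. Same-numbered libraries did not deviate together, with correlations of −0.0064 to 0.033 over both measures.

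The difference in share (−0.45 points, knockdown minus control) reversed to 1.15 at a −log10 q cut of 10. It was −0.75 for 1000 clusters, −0.072 for clusters chosen on knockdown lists and −0.17 on all 6. It was −0.80 to −0.12 when one control was left out of the choice and used alone. The overlap with knockdown-chosen clusters was 60.8% with a gap of 20 kb, 61.2% with regions cut at a −log10 q of 5 and 48.8% at 20. The causes were not tested. Depth and group cannot be told apart in which weak regions were listed.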

Other observations

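The promoter of DDIT4, outside the rule and picked after its values were seen, had a fold over local background of 11.2, 11.3 and 11.8 in knockdown libraries, against 7.55, 8.44 and 8.54 in controls. Every knockdown library was above every control, as for the fold in 0.25% of all distal clusters. Those clusters were chosen on the controls, which favours lower knockdown values, and no such share was computed over promoters. The −log10 q of the DDIT4 promoter was 144.5, 141.5 and 176.6 in knockdown libraries, against 180.7, 205.8 and 235.3 in controls, the other direction. The difference was not tested.

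The promoter of FCRL5, picked in the same way, had folds of 5.31, 5.27 and 4.72 in knockdown libraries, against 8.27, 12.5 and 7.87 in controls. Every knockdown library was below every control, as for the fold in 66% of all distal clusters. Its −log10 q was 11.2, 10.8 and 8.29 in knockdown libraries, against 27.5, 46.2 and 27.0 in controls. The difference was not tested.

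Local background exceeded 2 times the library-wide rate in 454 of the 500 clusters and 10 times in 34, over a range of 1.07 to 20.7 times.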
